A study of Mus musculus with 11 samples.

Results

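The regions described here are narrow stretches of the Polycomb mark H3K27me3 at promoters of mouse genes with no H3K27ac region annotated to a promoter. Of 20086 distinct H3K27me3 regions in the deposited table, 3868 (19.3%) were annotated to a promoter, were under 5000 bp wide and belonged to a gene with no promoter-annotated region in the H3K27ac table. They made up 58.6% of the 6604 promoter H3K27me3 regions and belonged to 2829 genes. The choice used position, width and annotation of the regions, and no counts or genotype differences.

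The assay was CUT&Tag. An antibody directs a transposase to cut and tag DNA beside a histone mark or bound protein. The cells were endocrine cells of the pancreas that had been sorted for the red reporter tdTomato. The Isl1CKO group (Isl1loxP/loxP;Neurod1-cre) lost both copies of Isl1, a LIM-homeodomain transcription factor of islet cells, wherever Cre was active, and that loss was not measured in these files. The Control group (Isl1loxP/+;Neurod1-cre) carried a single floxed copy and was therefore heterozygous in the same cells, so there was no wild-type group. Both groups carried the Neurod1-cre transgene, which acts in Neurod1-expressing cells, and the Ai14 tdTomato reporter, on a C57BL/6 background, and males and females were pooled. At postnatal day 9 each genotype had 2 H3K27me3 and 2 H3K27ac libraries, each from about 20000 cells pooled from 3 to 4 pancreases, which the labels call independent biological replicates. ISL1 was profiled in Control cells alone, at E14.5 in the embryo (2 libraries, which share 1 deposited column) and at postnatal day 9 (1 library).

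H3K27me3 is written by Polycomb repressive complex 2 and is found at promoters of genes that a cell lineage keeps silent, most densely at CpG-rich promoters of developmental regulators. H3K27ac marks the same lysine at active promoters and enhancers, so a single histone tail cannot carry both marks. Broad H3K27me3 domains typically cover homeobox and other lineage-selector genes, while narrower stretches lie at many tissue-restricted genes and at the edges of broad domains.

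The promoters of 6 of the most strongly marked members and of Sst show how different the underlying sequence can be. Each is the stretch of 250 bases upstream of the annotated RefSeq start, read 5′ to 3′ in the gene's direction from the GRCm38.p6 assembly, with CpG dinucleotides in capitals. The sets were chosen after the values were seen, as the 3 protein-coding members with the highest H3K27me3 over their start among those with an observed-to-expected CpG ratio of at least 0.6, and the 3 highest among those below 0.3. The CpG-rich set was Hmx3, a homeobox factor of the inner ear and hypothalamus, at chr7:131542713-131542962 (plus strand), Twist2, a basic helix-loop-helix (bHLH) factor of mesenchyme, at chr1:91801211-91801460 (plus strand), and Zfyve28, a FYVE-domain protein, at chr5:34288325-34288574 (minus strand).

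Hmx3: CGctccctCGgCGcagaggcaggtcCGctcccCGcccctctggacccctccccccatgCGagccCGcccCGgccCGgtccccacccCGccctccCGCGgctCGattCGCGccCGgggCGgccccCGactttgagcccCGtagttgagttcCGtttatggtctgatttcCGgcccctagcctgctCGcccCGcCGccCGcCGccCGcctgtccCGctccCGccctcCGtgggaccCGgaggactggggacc
Twist2: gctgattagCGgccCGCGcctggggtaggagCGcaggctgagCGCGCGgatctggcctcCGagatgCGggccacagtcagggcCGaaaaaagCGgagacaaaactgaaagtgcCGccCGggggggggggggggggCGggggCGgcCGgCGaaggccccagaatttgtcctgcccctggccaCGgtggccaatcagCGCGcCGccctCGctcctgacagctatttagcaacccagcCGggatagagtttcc
Zfyve28: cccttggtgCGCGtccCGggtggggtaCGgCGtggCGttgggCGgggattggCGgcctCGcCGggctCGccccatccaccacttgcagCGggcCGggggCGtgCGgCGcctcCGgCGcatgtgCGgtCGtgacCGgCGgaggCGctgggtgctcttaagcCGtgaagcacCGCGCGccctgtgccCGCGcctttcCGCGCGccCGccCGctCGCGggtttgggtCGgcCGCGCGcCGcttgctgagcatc

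These windows held 31, 23 and 41 CpGs. Their CpG ratios were 0.907 for Hmx3, 0.788 for Twist2 and 1.115 for Zfyve28. The CpG-poor set was Nwd2, at chr5:63648853-63649102 (plus strand), Dkk1, a secreted antagonist of Wnt signalling, at chr19:30549497-30549746 (minus strand), and Lyl1, a bHLH factor of blood cells, at chr8:84701207-84701456 (plus strand). The Lyl1 region overlapped an H3K27ac region that was not annotated to a promoter of Lyl1.

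Nwd2: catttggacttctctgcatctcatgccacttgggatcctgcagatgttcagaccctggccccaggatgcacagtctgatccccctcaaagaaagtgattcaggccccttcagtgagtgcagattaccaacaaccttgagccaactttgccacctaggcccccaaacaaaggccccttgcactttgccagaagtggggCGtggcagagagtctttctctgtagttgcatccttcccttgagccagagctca
Dkk1: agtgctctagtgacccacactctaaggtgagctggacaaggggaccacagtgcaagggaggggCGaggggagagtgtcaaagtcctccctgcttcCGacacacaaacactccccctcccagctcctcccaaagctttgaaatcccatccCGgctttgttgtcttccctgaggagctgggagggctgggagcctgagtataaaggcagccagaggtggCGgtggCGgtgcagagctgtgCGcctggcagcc
Lyl1: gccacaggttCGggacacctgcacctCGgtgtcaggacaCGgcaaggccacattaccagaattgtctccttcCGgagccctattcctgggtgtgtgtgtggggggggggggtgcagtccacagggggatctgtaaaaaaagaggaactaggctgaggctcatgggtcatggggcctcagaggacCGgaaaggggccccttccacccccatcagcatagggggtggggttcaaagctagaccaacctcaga

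Nwd2 had 1 CpG in its window, Dkk1 6 and Lyl1 5, with CpG ratios of 0.0572, 0.260 and 0.226. Among all 32851 RefSeq promoter windows of the same length, 34.0% reached a ratio of 0.6 and 42.7% lay below 0.3. The promoter of Sst, which encodes the islet hormone somatostatin, lies at chr16:23890845-23891094 (minus strand). Its 8 CpGs gave a ratio of 0.599, and the palindrome TGACGTCA, the cAMP response element, began 48 bases before the start.

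Sst: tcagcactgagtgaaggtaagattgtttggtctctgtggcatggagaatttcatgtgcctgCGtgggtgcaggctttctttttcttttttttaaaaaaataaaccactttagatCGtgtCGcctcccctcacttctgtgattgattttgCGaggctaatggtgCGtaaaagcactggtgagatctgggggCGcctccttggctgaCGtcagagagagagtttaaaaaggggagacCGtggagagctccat

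That motif, which reads the same on both strands, occurred in 1.55% of all promoter windows. A sequence was found for 891 (56.7%) of the 1572 members that lay over a start, too few for a comparison of base composition between groups of promoters.

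Members were short and often lay beside the start rather than over it. Their median width was 1429.5 bp (quartiles 941 and 2523.5 bp, range 304 to 4996 bp). The annotation placed 2366 (61.2%) within 1 kb of a transcription start, 789 (20.4%) at 1 to 2 kb and 713 (18.4%) at 2 to 3 kb. A start lay inside 1572 members (40.6%), against 46.5% of the 1603 narrow promoter regions of genes with an H3K27ac promoter and 91.2% of the 857 promoter regions of at least 5000 bp without one, which are called wide here. A single member was found at 1970 genes, and 859 genes had 2 or more. The highest number was 4, at 25 genes that included Htr7, a serotonin receptor, and Cxcr3, a chemokine receptor. At the width limit, the 3 widest members were at B4galnt2 (4996 bp), Lrrc32 (4993 bp) and Pom121l2 (4992 bp). The 3 promoter regions just above it were at 4930478P22Rik (5009 bp), Smim3 (5010 bp) and Gm26902 (5016 bp).

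Most members stood apart from both wide H3K27me3 and H3K27ac, the latter in part because the rule excluded genes with promoter H3K27ac. A wide H3K27me3 region of any annotation lay within 10 kb of 586 members (15.1%), against 27.2% of the wide promoter regions themselves and 18.3% of all H3K27me3 regions. Of the 2829 genes, 160 also had a wide promoter region. The median distance to the nearest H3K27ac region was 46292 bp, and 2658 members (68.7%) were at least 20 kb from one. These distances are given for members alone, without other regions to compare. An H3K27ac region that was not a promoter region of the member's own gene overlapped 71 members (1.84%). This compared with 3.75% of non-promoter H3K27me3 regions, 9.67% of all H3K27me3 regions and 65.1% of narrow regions at genes with an H3K27ac promoter. The last contrast is largely set by the rule. The rule therefore left a small group in which both marks were found at the same place in these pools of cells. On the X chromosome 135 of 401 H3K27me3 regions (33.7%) were members, and on the other chromosomes the share ran between 13.4% on chromosome 4 and 26.4% on chromosome 17.

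Known marker genes were used to check the label of the sorted cells. Of 30 pancreatic endocrine markers, 22 had an H3K27ac promoter region, against 1 of 21 acinar, 6 of 12 ductal, 2 of 13 endothelial, 2 of 14 mesenchymal, 2 of 11 immune and 5 of 15 glial and neuronal markers. Members among the markers of other cell types included the ductal genes Krt19, Cftr and Aqp1, the endothelial receptor gene Kdr and the mesenchymal genes Col1a2, Nkx3-2 and Twist1. The Krt19 region lay 2248 bp from the start and overlapped an H3K27ac region not annotated to a Krt19 promoter. Aqp1 was near the floor, with 43 and 0 counts in Isl1CKO and 14 and 0 in Control. In such bulk pools, a mark present in fewer cells and a weaker mark in every cell cannot be told apart.

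The 4 H3K27me3 libraries held 2276887 and 2260039 counts for Isl1CKO and 1202276 and 1750706 for Control over all regions. Members took 15.2% and 15.1% of these counts in the Isl1CKO libraries, against 14.7% and 15.0% in the Control libraries. The groups did not overlap but were close. The mean share was 15.2% ± 0.0784 in Isl1CKO and 14.9% ± 0.183 in Control (SD, n = 2 each), a difference of 0.304 percentage points with an exact two-sided permutation p of 0.333, the smallest that 2 against 2 libraries allow. With the 2366 members within 1 kb of a start alone, the difference was -0.011 points. Levels below are CPM, counts scaled to library size and by TMM factors, and a count of 0 allows up to 1.27 to 2.63 CPM depending on the library, which covers counting error only. The median member had 17.9 and 17.3 CPM in Isl1CKO, against 15.8 and 17.5 CPM in Control. Control replicate 2 held 159 members at 0 counts, against 39 and 74 in the Isl1CKO libraries and 22 in Control replicate 1. Across members, Pearson correlations between libraries on the log2(CPM + 1) scale were 0.690 within Isl1CKO, 0.649 to 0.796 between genotypes and 0.756 within Control.

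Per unit length, the median level of members was close to that of all H3K27me3 regions and below that of wide promoters, without a test. It was 13.4 CPM per kb in Isl1CKO and 12.8 in Control. The wide promoters of genes without an H3K27ac promoter had 40.5 CPM per kb in Isl1CKO and 43.9 in Control. All H3K27me3 regions had 12.6 and 11.3. Members over a start had 16.7 CPM per kb in Isl1CKO and 18.02 in Control, whereas those beside a start had 12.0 and 10.7. The density was highest in the widest class of 2500 bp or more, with 22.7 CPM per kb in Isl1CKO and 24.3 in Control over 982 members. Members closer than 10 kb to a wide region had 13.9 and 13.8 CPM per kb, and those further away had 13.3 and 12.6, so closeness to a wide region went with little difference in density. Per length the densest members included a short stretch at the gene model Gm32892 (138.6 CPM per kb over 491 bp), a region at Otp, a homeobox factor of hypothalamic neurons (116.1 CPM per kb), Gm4675 (113.2 CPM per kb) and D030062O11Rik (112 CPM per kb).

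The 8 members with the highest totals were between 2975 bp (D030062O11Rik) and 4922 bp (Skor2) wide. Hmx3 (ENSMUSG00000040148, chr7:131141796-131146583, 4788 bp, GRCm39) had 826 and 997 counts in Isl1CKO, against 654 and 941 in Control. Scaled for depth these were 351 and 422 CPM in Isl1CKO and 574 and 550 CPM in Control. Both Isl1CKO libraries were thus the lower ones at Hmx3, and the means were 386.6 ± 49.9 CPM and 562 ± 16.8 CPM (SD, n = 2 each), a log2 fold change of -0.54 (SE 0.17) that edgeR's quasi-likelihood test did not call after Benjamini-Hochberg adjustment (adjusted p = 1.00). Twist2 (chr1:91726461-91730984) had 467 and 326 CPM in Isl1CKO, against 405 and 403 CPM in Control. Its Isl1CKO libraries lay on either side of the Control libraries, with a log2 fold change of -0.03 (SE 0.20). Zfyve28 had 314 and 305 CPM in Isl1CKO and 372 and 352 CPM in Control, again with both Isl1CKO libraries below, and a log2 fold change of -0.22 (SE 0.18) and no call.

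The other 5 of the 8 members with the highest CPM were the gene models Gm4675, Gm47071, 4833428L15Rik and D030062O11Rik and the gene Skor2, a transcriptional corepressor of cerebellar Purkinje cells. Gm4675 averaged 371 ± 32.3 CPM in Isl1CKO and 495 ± 128 CPM in Control. Skor2 averaged 322 ± 35.1 CPM in Isl1CKO and 361 ± 54.5 CPM in Control. The log2 fold changes of these 5 ran between -0.43 (D030062O11Rik) and -0.16 (Skor2), and none was called. The plot of single libraries at 16 members shows the spread between replicates at the upper end of the range.

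**Figure D1:**
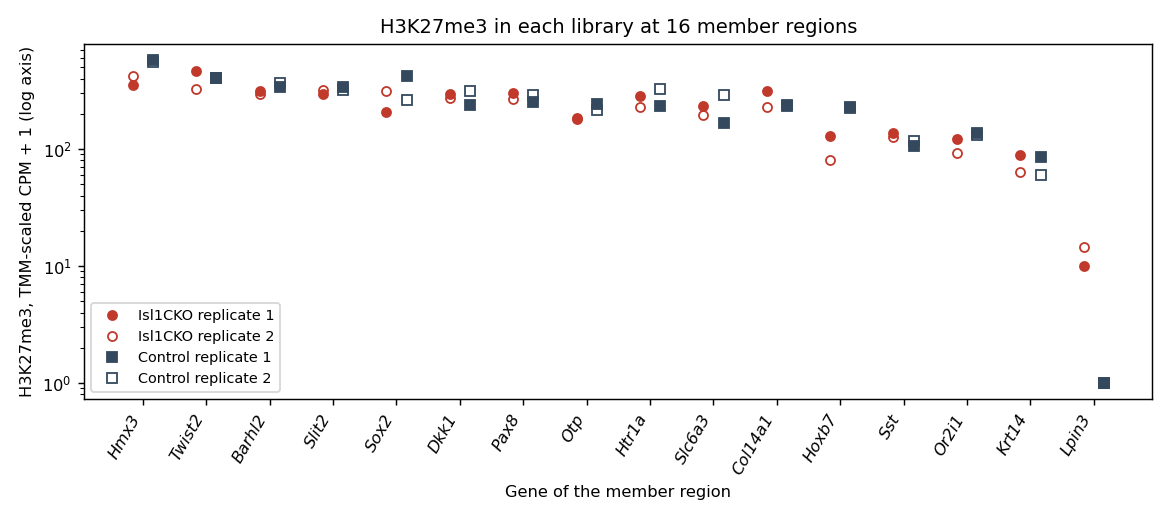
H3K27me3 in each library at 16 member regions (TMM-scaled CPM + 1, log axis; red circles, Isl1CKO; dark squares, Control; filled, replicate 1; open, replicate 2). At Hmx3 and Hoxb7 both Isl1CKO libraries lie below both Control libraries, at Twist2, Sox2 and Dkk1 the libraries of the genotypes interleave, and at Lpin3 both Control libraries are at 0 counts.

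By gene family, the regions divided unevenly between the narrow and the wide class. Among 106 homeobox genes with an H3K27me3 promoter, 19 (17.9%) were members and 83 had a wide region and no H3K27ac promoter. Of 41 Sox, Pax, Tbx, Gata and Fox genes, 10 (24.4%) were members and 27 had a wide region, and of 39 bHLH genes 15 (38.5%) were members and 20 had a wide region. Some families of differentiated or tissue-restricted function stood at the other end. All 34 olfactory, vomeronasal and taste receptor genes with an H3K27me3 promoter were members, as were 28 of 33 keratin and epithelial barrier genes (84.8%), 22 of 30 proteases and inhibitors (73.3%) and 53 of 79 neurotransmitter receptor genes (67.1%). Predicted, Riken and noncoding gene models accounted for 1322 member genes out of 1735 (76.2%). Other such families lay between, with 42.3% of ion channel, 47.8% of solute carrier and 50% of collagen, laminin, integrin and matrix enzyme genes. Counted by regions instead of genes, members were 58.6% of all promoter H3K27me3 regions. Since the families were grouped by name and width was part of the choice, these shares are a description without a test.

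**Figure D2:**
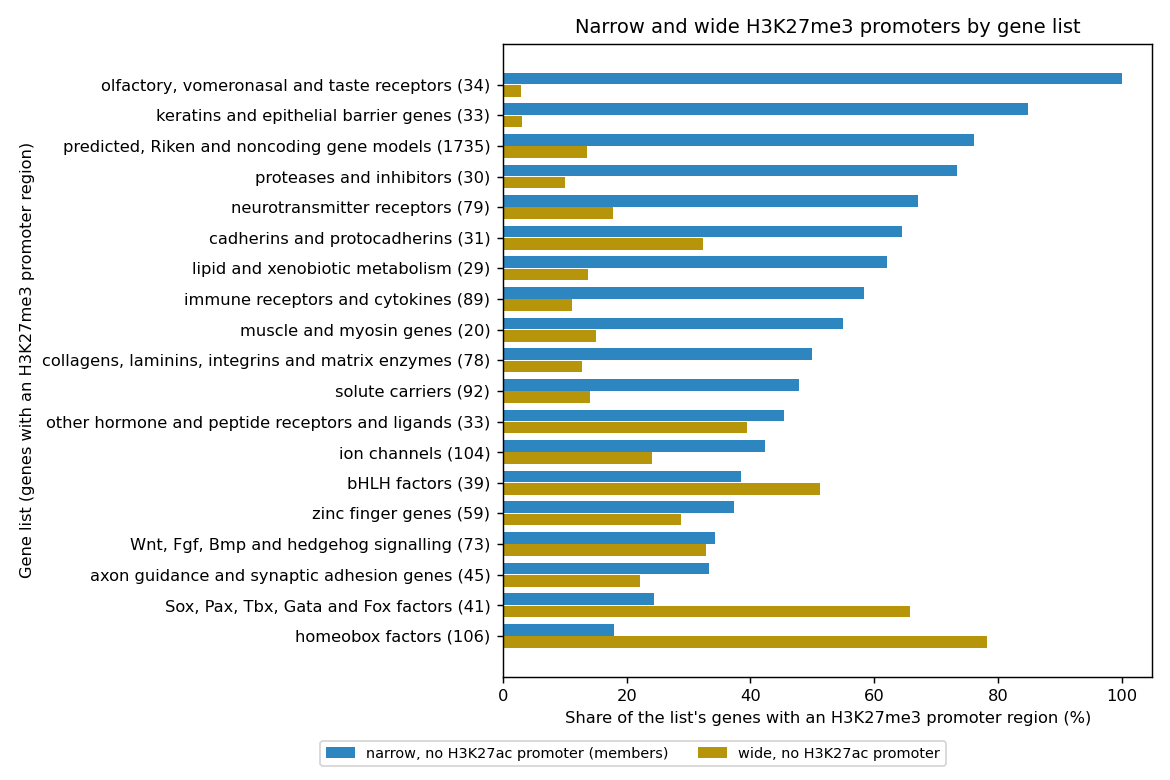
Share of each gene list's H3K27me3-promoter genes (number in brackets) with a member region (blue) or with a wide region and no H3K27ac promoter (ochre), in percent. Members take 100% of the 34 olfactory, vomeronasal and taste receptor genes and 17.9% of the 106 homeobox genes, where wide regions prevail.

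Among transcription factors, several members lay next to a wide region rather than apart from it. Barhl2, a homeobox factor of retinal and other neurons, had 312 and 292 CPM in Isl1CKO and 340 and 369 CPM in Control at a region 274 bp from a wide one. Hoxd10, a posterior patterning gene, had 176.1 and 191 CPM in Isl1CKO and 190 and 231 CPM in Control at its start, 380 bp from a wide region. At Barhl2 both Isl1CKO libraries were the lower ones, and the genotypes overlapped at Hoxd10. Sox2, a factor of neural progenitors, had 205 and 315 CPM in Isl1CKO and 424 and 259 CPM in Control, where the libraries of the genotypes interleaved. Twist1, a mesenchymal bHLH factor, had 247 and 221 CPM in Isl1CKO, both below the 387 and 341 CPM in Control, and lay 1392 bp from a wide region. Pax8, a factor of thyroid and kidney, had 301 and 268 CPM in Isl1CKO and 250 and 286 CPM in Control, and its nearest wide region was 811577 bp away. The zinc finger factor genes Ikzf1, of lymphocytes, and Prdm1, of plasma cells and other lineages, were members too. Ikzf1 had 258 and 248 CPM in Isl1CKO and 219 and 284 CPM in Control. Prdm1 had 164 and 140 CPM in Isl1CKO, below the 206 and 218 CPM in Control.

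Secreted signals and guidance factors had shares within the range of the transcription factor families. Members were 25 of 73 Wnt, Fgf, Bmp and hedgehog genes (34.2%) and 15 of 45 axon guidance and synaptic adhesion genes (33.3%). Dkk1, whose CpG-poor promoter is printed above, had 297 and 270 CPM in Isl1CKO and 236 and 310 CPM in Control over its start, and a second member upstream with 48.5 and 66.4 CPM in Isl1CKO and 43.9 and 91.2 CPM in Control. Wnt16, a Wnt ligand, had 303 and 260 CPM in Isl1CKO and 309 and 328 CPM in Control. Gdf10, a ligand of the BMP family, had 331 and 264 CPM in Isl1CKO and 342 and 298 CPM in Control. The genotypes overlapped at both Dkk1 regions and at Gdf10, and at Wnt16 both Isl1CKO libraries were the lower. Slit2, a repulsive ligand of Robo receptors, had 297 and 316 CPM in Isl1CKO and 339 and 319 CPM in Control, and its paralogue Slit3 had 212 and 340 CPM in Isl1CKO and 331 and 312 CPM in Control. At Slit2, but not at Slit3, both Isl1CKO libraries were below both Control libraries.

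Members among receptor, channel and transporter genes covered a wide range. The mean level ran between 5.79 and 266 CPM over neurotransmitter receptor members, between 5.85 and 248 CPM over ion channel members and between 6.55 and 278 CPM over solute carrier members, and the genes named next were among the highest of each list. Htr1a, the serotonin 1A receptor, had 282 and 229 CPM in Isl1CKO and 232 and 323 CPM in Control. Gabra5, a subunit of GABA-A receptors, had 248 and 184 CPM in Isl1CKO and 168 and 191 CPM in Control. Chrna3, a nicotinic acetylcholine receptor subunit, had 173.1 and 159 CPM in Isl1CKO, both below the 214 and 179 CPM in Control. Libraries of the genotypes overlapped at the first pair of genes. Among 92 solute carrier genes with an H3K27me3 promoter, 44 were members, and among 104 ion channel genes 44. The dopamine transporter gene Slc6a3 had 234 and 195 CPM in Isl1CKO and 165 and 287 CPM in Control. The chloride channel family gene Ano4 had 290 and 275 CPM in Isl1CKO, both above the 195 and 230 CPM in Control. The potassium channel gene Kcnf1 had 212 and 216 CPM in Isl1CKO, below the 261 and 233 CPM in Control. Peptide genes included Tac1, the substance P precursor, with 218 and 252 CPM in Isl1CKO and 183 and 266 CPM in Control, and Calcb, a calcitonin gene-related peptide, with 302 and 242 CPM in Isl1CKO and 177 and 243 CPM in Control. At Slc6a3, Tac1 and Calcb the genotypes overlapped.

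Members among epithelial, matrix, muscle and olfactory genes reached different levels. The highest of the keratin and epithelial barrier list was Gja3, a connexin of the lens, with 149 and 158 CPM in Isl1CKO and 158 and 201 CPM in Control. Krt14, a basal keratin, had 88.0 and 63.0 CPM in Isl1CKO and 85.1 and 59.1 CPM in Control over its start. The genotypes overlapped at both genes. The olfactory receptor gene Or2i1 had 121 and 91.0 CPM in Isl1CKO, below the 137 and 130 CPM in Control, at a region 2069 bp downstream of its start. Col14a1, a fibril-associated collagen, had 310 and 227 CPM in Isl1CKO and 231 and 235 CPM in Control. At Col14a1 the genotypes overlapped. Myo16, an unconventional myosin, was the highest of the muscle and myosin list, with 162 and 155 CPM in Isl1CKO, both below the 249 and 310 CPM in Control. Its adjusted p was 0.0357 by DESeq2 and 1.00 by edgeR. Myl2, the ventricular myosin light chain, had 156.95 and 117 CPM in Isl1CKO and 134 and 101 CPM in Control. The genotypes overlapped at Myl2 too.

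A few members belonged to genes of the islet itself. Sst (ENSMUSG00000004366, chr16:23708575-23712872) was a member and had no H3K27ac region of any annotation. Sst had 135 and 126 CPM in Isl1CKO, against 105 and 116 CPM in Control. Both Isl1CKO libraries were above both Control libraries, but the means of 131 ± 6.18 CPM and 111 ± 7.82 CPM (SD, n = 2 each) gave a log2 fold change of 0.23 (SE 0.30) that edgeR did not call, and with library sizes implied by the authors' fold changes it was -0.30.

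Other islet-related members were weaker or more variable. Sstr5, a somatostatin receptor, had 152.3 and 116 CPM in Isl1CKO and 202 and 84.8 CPM in Control over its start. Pax4, a factor of beta and delta cell precursors, had 13 and 26 counts in Isl1CKO and 10 and 15 counts in Control. Of 28 genes known to be kept off in beta cells, 14 had an H3K27ac promoter and 19 an H3K27me3 promoter. Members were 7 of them (Igf1, Maf, Mgst1, Mylk, Nfib, Selenbp1 and Zfp36l1). Zfp36l1 had 49.8 and 91.4 CPM in Isl1CKO and 72.8 and 141 CPM in Control, where the genotypes overlapped. Nfib, a nuclear factor I gene not among the highest of this list, had 77.8 and 27.1 CPM in Isl1CKO, both above the 25.4 and 14.6 CPM in Control. Mylk, the smooth muscle myosin kinase, had 60.0 and 52.9 CPM in Isl1CKO and 50.9 and 29.8 CPM in Control over its start. Maf, a bZIP factor, was split, with 58.7 and 102 CPM in Isl1CKO below the 137 and 115 CPM in Control at the start and 59.1 and 60.5 CPM in Isl1CKO above the 51.8 and 40.9 CPM in Control further upstream.

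The design asks whether H3K27me3 at these promoters differed between Isl1CKO and Control cells. edgeR called no member and DESeq2 called 12, all lower, and the median difference was close to 0. Of the 3868 members, 3764 passed the filter on low counts and 104 did not. edgeR's quasi-likelihood test, with Benjamini-Hochberg adjustment across the 19434 regions tested, called 0 members (0.0% of all regions), with a smallest adjusted p of 1.00. At an unadjusted p below 0.05 there were 33 higher members (0.877%, against 1.34% of all tested regions) and 79 lower members (2.10%, against 2.98%). DESeq2 called 12 lower members (0.310%, against 0.637% of all 20086 regions) and 0 higher ones (0.00996% of all regions), with adjusted p between 0.0117 and 0.0441. The adjusted p-values of the authors' deposited table were below 0.05 at 246 higher members (6.36%, against 9.17% of all regions) and 1222 lower members (31.6%, against 29.6%). The members' shares were thus close to or below those of all regions in each of these counts.

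Counting members whose groups did not overlap gave a similar picture. Both Isl1CKO libraries were above both Control libraries at 618 (16.4%, against 18.7% of all tested regions) and below them at 681 (18.1%, against 16.7%). The median log2 fold change was -0.01 over the tested members and 0.04 over all tested regions. Scaling moved the median of all regions to 0.15 with library totals and to -0.50 with the sizes implied by the authors' fold changes, and members moved with it to 0.10 and -0.55. With the implied sizes, 206 members (5.47%, against 7.79% of all regions) had both Isl1CKO libraries above and 1545 (41%, against 36.1%) below.

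**Figure D3:**
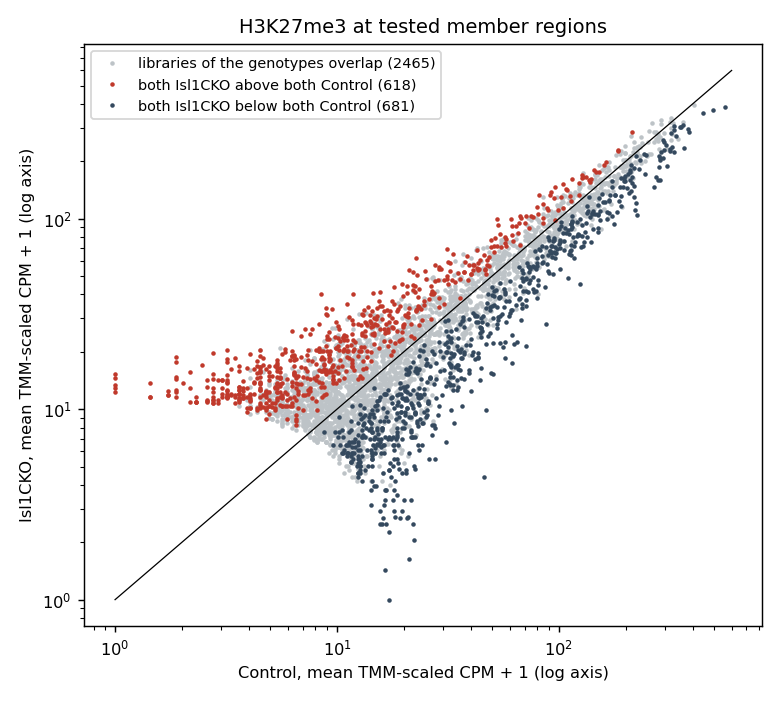
Mean H3K27me3 at the 3764 tested members in Isl1CKO (vertical) against Control (horizontal), as TMM-scaled CPM + 1 on log axes, with the line of equality. Red points (618) have both Isl1CKO libraries above both Control libraries, dark points (681) both below, and grey points (2465) overlap. The cloud follows the line, and the widest scatter is at low levels.

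The direction of the difference went with the level and width of a member. In the lowest quintile of members by mean level (5.52 to 8.72 CPM) the median log2 fold change was 0.40, and both Isl1CKO libraries were above at 23.6% and below at 9.16%. In the highest quintile (58.1 to 474.3 CPM) it was -0.13, with 8.90% above and 26.7% below. All tested regions of the lowest level range had a median of 0.48, with 26.99% above and 7.64% below, and those of the highest had -0.13, with 9.31% above and 28.8% below. The gradient was thus present over all H3K27me3 regions. When single libraries were left out, the lowest quintile ran between 0.25 and 0.50 and the highest between -0.15 and -0.12, while the implied sizes turned the lowest quintile to -0.13. The Isl1CKO libraries held 60.6% of all counts, and the deposited regions had at least 50 counts over the 4 libraries. Near that floor, a region with more of its counts in the deeper Isl1CKO libraries has a lower mean CPM. The floor thus favours regions higher in Isl1CKO in the lowest quintile, and no conclusion about members is drawn from its direction. The part of this depth difference in the gradient was not tested.

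Position showed the same division. The 1572 members over a start had a median log2 fold change of -0.11, with both Isl1CKO libraries above at 186 (11.9%) and below at 368 (23.6%) of the 1558 tested. The 2296 beside a start had 0.10, with 432 above (19.6%) and 313 below (14.2%) of 2206. Over all tested regions the shares were 18.7% above and 16.7% below. Members under 1 kb had a median of 0.25, those of at least 1 kb but under 2500 bp -0.01, and wider ones -0.10. Width and level rose together over the 3868 members (Spearman's rho 0.890, a description across regions that share the same libraries), so these divisions are not separate pieces of evidence. The 71 members overlapping an H3K27ac region had a median of -0.29, with 3 above (4.29%) and 20 below (28.6%) of the 70 tested. Narrow regions of genes with an H3K27ac promoter leaned the same way, with a median of -0.23, 9.12% above and 25.3% below, and a difference from them was not tested. Members within 10 kb of a wide region and those further away both had -0.01.

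**Figure D4:**
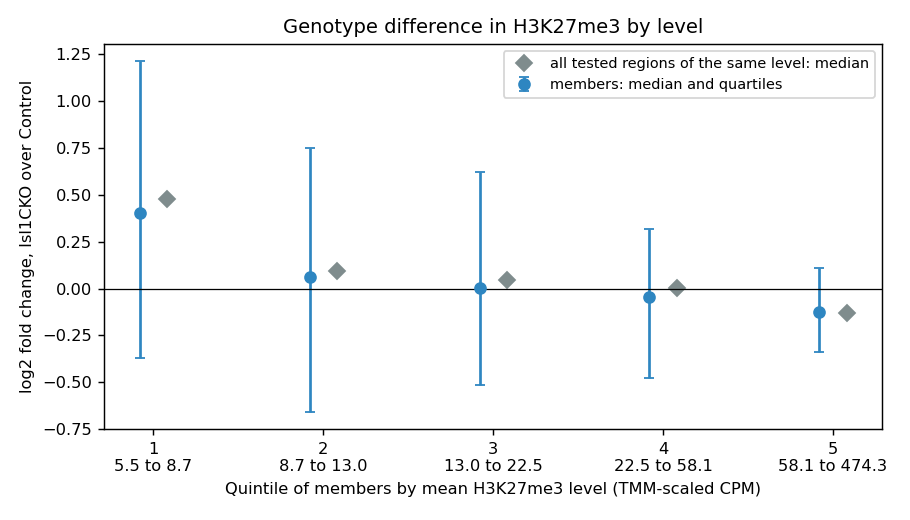
Log2 fold change of H3K27me3, Isl1CKO over Control, in quintiles of the tested members by mean level (TMM-scaled CPM). Blue circles are medians with quartiles as bars, and grey diamonds are medians of all tested regions of the same level. Medians of members fall over the quintiles, 0.40, 0.06, 0.00, -0.04 and -0.13, close to those of all regions.

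The lower members with the smallest p-values included a Hox gene. Hoxb7 (chr11:96173383-96177258), a patterning gene of the trunk, had 301 and 187 counts in Isl1CKO, against 260 and 378 in Control, or 128 and 79.1 CPM in Isl1CKO and 228 and 221 CPM in Control. Both Isl1CKO libraries were well below the Control libraries, with means of 104 ± 34.6 CPM and 225 ± 5.05 CPM (SD, n = 2 each), a log2 fold change of -1.12 (SE 0.29), an adjusted p of 1.00 by edgeR and of 0.0312 by DESeq2. The region ended 264 bp from a wide H3K27me3 region. Prcd, a photoreceptor disc protein gene, had 144 and 148 CPM in Isl1CKO and 301 and 231 CPM in Control over its start, for a log2 fold change of -0.86 (SE 0.24). DESeq2 gave an adjusted p of 0.0346, and the region overlapped an H3K27ac region that was not annotated to a promoter of Prcd. Gm2102 had 136 and 180 CPM in Isl1CKO and 291 and 280 CPM in Control, for a log2 fold change of -0.86 (SE 0.24), and DESeq2 gave an adjusted p of 0.0348. Gm54420 had 23 and 19 counts in Isl1CKO, against 44 and 91 in Control, for a log2 fold change of -2.36 (SE 0.66). DESeq2 gave an adjusted p of 0.0117, and it lay 368 bp from an H3K27ac region. At Hexdc, a hexosaminidase gene, the counts were 0 and 0 in Isl1CKO and 7 and 45 in Control, at least 28.7-fold lower against the limit of 3 counts over the group. That bound was 9.65-fold without Control replicate 2 and 41.3-fold without Control replicate 1, and without either Isl1CKO library it was at least 14.3-fold. The other 4 members with 0 counts in both Isl1CKO libraries were also called by DESeq2 and had 48 to 54 counts in Control replicate 2 but 3 to 5 in Control replicate 1. None of the first 5 was called by edgeR. Deposited regions had at least 50 counts over the 4 libraries. A region at 0 in both Isl1CKO libraries was therefore listed only through its Control counts, and the Hexdc bound is not evidence of a difference.

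The higher members with the smallest p-values were all short, with widths of 460 bp (Gm43762) to 1089 bp (Gm56255), and both Control libraries were at 0. Lpin3, a lipin phosphatidate phosphatase gene, had 21 and 32 counts in Isl1CKO and 0 in both Control libraries, at least 10.7-fold higher (4.27-fold without Control replicate 2 and 6.41-fold without Control replicate 1). Ahrr, which represses signalling of the aryl hydrocarbon receptor, had 17 and 39 counts in Isl1CKO and 0 in both Control libraries at 1 of its 4 members, at least 11.3-fold higher (4.51-fold without Control replicate 2, 6.77-fold without Control replicate 1 and 6.87-fold without Isl1CKO replicate 2). At the Ahrr member over the start the counts were 122 and 58 in Isl1CKO and 44 and 103 in Control, which overlapped. The gene models Gm56255, Gm3455 and Gm43762 had 44 and 23, 48 and 16, and 42 and 16 counts in Isl1CKO, all against 0 in Control. None was called by edgeR or DESeq2. With the floor of 50 counts over the 4 libraries, a region at 0 in both Control libraries was listed only through its Isl1CKO counts. These bounds are therefore not evidence of a difference. Over all members, both Control libraries were at 0 at 7 and both Isl1CKO libraries at 5, against 32 and 23 over all regions.

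edgeR called no region of any gene family. Over 18 families grouped by name, 0 member regions were called by edgeR, and the median log2 fold change ran between -0.37 in muscle and myosin genes and 0.37 in proteases and inhibitors, with 9 families above 0 and 9 below. With library totals 16 were above 0 and 2 below, and with the implied sizes all 18 were below, so no direction is given for a family. Single libraries mattered as well. The highest family median was 0.84 (olfactory, vomeronasal and taste receptors) without Control replicate 2, and the lowest was -0.57 (muscle and myosin genes) without Isl1CKO replicate 1. Of the 12 members that DESeq2 called lower, 4 belonged to families other than the gene models. These were Hoxb7 of the homeobox genes, Myo16 of the muscle and myosin genes, Zfp663 of the zinc finger genes and Slc9b2 of the solute carriers. Gm2102, Gm54420, Gm48546, Gm50303 and Gm56436, also among the 12, were gene models. Zfp663 had 34 and 33 counts in Isl1CKO, against 58 and 83 in Control (DESeq2 adjusted p = 0.0441). Slc9b2 had 40 and 38 counts in Isl1CKO, against 55 and 125 in Control (DESeq2 adjusted p = 0.0292). Both were named after their values were seen, and edgeR called neither.

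The share of member genes with an ISL1 value of at least 1 was near that of all coding genes at E14.5 and above it at postnatal day 9. At both stages it was below that of the other H3K27me3 promoters, without a test. The deposited ISL1 table gives a whole number per promoter window, whose unit is not stated and which is called the ISL1 value here. Of 1402 protein-coding member genes, 1325 had a window. At E14.5, 567 (42.8%) had an ISL1 value of at least 1, against 65.5% of 939 genes with a narrow region and an H3K27ac promoter, 75.5% of 550 with a wide region and no H3K27ac promoter, and 45.6% of all 17247 coding windows. At postnatal day 9 the share was 183 genes (13.8%), against 15.97%, 29.1% and 9.88%. Values were small, with 758 genes at 0, 354 at 1 and 124 at 2 at E14.5, and none reached 10 at either stage. Of all coding windows, 18 (0.104%) reached 10 at E14.5 and 0 at postnatal day 9, so small values were not particular to members. With no replicate libraries to compare and no control for background, these shares have no error beyond the counts of genes and no test.

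**Figure D5:**
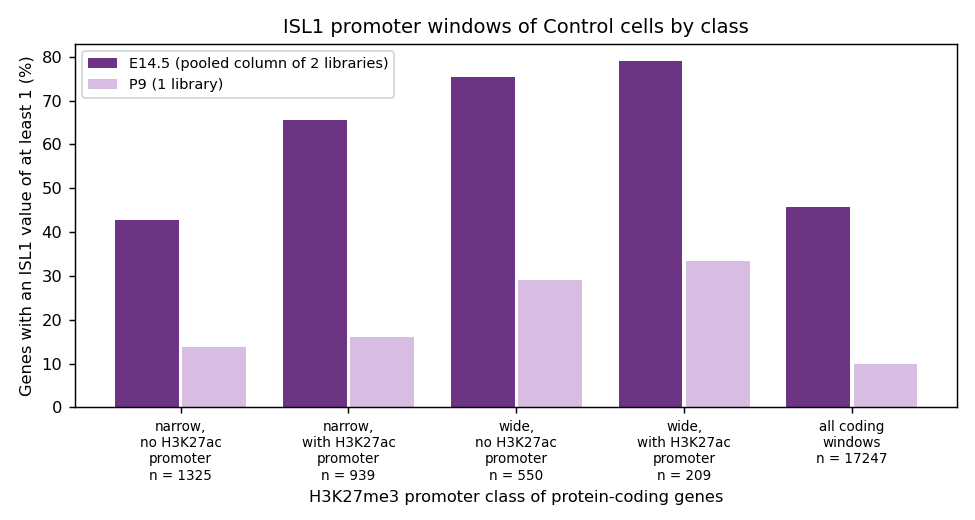
Share of protein-coding genes with an ISL1 value of at least 1 in their promoter window in Control cells, in percent, at E14.5 (dark) and postnatal day 9 (light), for 4 classes of H3K27me3 promoter and all coding windows. Members (left) have 42.8% and 13.8%, next to 45.6% and 9.88% of all windows. Genes with a wide region and no H3K27ac promoter have 75.5% and 29.1%.

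The highest ISL1 values among members were single digits, as were the values of almost all coding windows. At E14.5 Pax1, a factor of the sclerotome and pharyngeal pouches, had 8, Prok1, a prokineticin, had 7, and 6 genes had 6, among them Prss12, a neuronal protease, Pdgfb, a platelet-derived growth factor, and Skor2. At postnatal day 9 Ovol2, an epithelial zinc finger factor, and Il10ra, the interleukin 10 receptor, had 4, and 4 further genes had 3, among them Npy5r, a neuropeptide Y receptor. Sst had 1 at E14.5 and 0 at postnatal day 9. The median H3K27me3 difference was slightly below 0 with and without ISL1. The 783 tested member regions of genes with a value of at least 1 at E14.5 had a median log2 fold change of -0.09, against -0.03 for the 1004 tested regions of genes at 0. By the postnatal values the medians were -0.12 over 232 tested regions and -0.05 over 1555. None of these regions was called by edgeR.

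Although no H3K27ac region was annotated to their promoters, 328 member genes (11.6%) were the nearest gene of 592 H3K27ac regions of non-promoter annotation. Of these regions 248 were in introns, 179 were distal intergenic, 87 were in exons and 78 had other annotations, and their median width was 818 bp. The H3K27ac libraries held 681047 and 1441926 counts for Isl1CKO and 1307049 and 1815511 for Control. Control replicate 2 stood apart. Its correlations with the other libraries over these regions were 0.114 to 0.216, against 0.374 to 0.570 among the other 3, and at 66 of the 592 regions it held over 70% of the scaled signal, against 1 in Isl1CKO replicate 2 and 0 in the others.

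Of the 592 regions 525 were tested. edgeR called 0 (0.0% of all 30036 H3K27ac regions), with 11 higher (2.10%, against 2.69%) and 33 lower (6.29%, against 3.14%) at an unadjusted p below 0.05. DESeq2 called 1 higher (0.0667% of all regions) and 1 lower (0.0254%). Both Isl1CKO libraries were above both Control libraries at 71 regions (13.5%, against 18.1% of all) and below at 150 (28.6%, against 19.5%). The median log2 fold change was -0.27, against -0.03 over all H3K27ac regions. Without Control replicate 2 the median was 0.02 against 0.03, with 169 regions above the remaining Control library (32.2%, against 33.1%) and 204 below (38.9%, against 34.5%). edgeR then called 1 region (0.194%, against 0.0505% of all). Without Control replicate 1 the median was -0.71, and edgeR called 57 regions (9.63%, against 6.15% of all), 10 of them higher. The lower values thus went with Control replicate 2.

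The higher region called by DESeq2 was at Pomc, the precursor of pituitary melanocortins, whose promoter had 63.4 and 74.0 CPM of H3K27me3 in Isl1CKO and 68.4 and 69.0 CPM in Control. The H3K27ac region, annotated to the 3′ UTR (chr12:4009579-4010899, GRCm39), had 59 and 145 counts in Isl1CKO, against 31 and 50 in Control. Both Isl1CKO libraries were above both Control libraries, with means of 94.5 ± 8.74 CPM and 25.4 ± 2.42 CPM (SD, n = 2 each), a log2 fold change of 1.89 (SE 0.45) and an adjusted p of 0.840 by edgeR and 0.0311 by DESeq2. The lower one was in an intron of Cdh23, a cadherin of sensory hair cells, with 0 counts in both Isl1CKO libraries and 24 and 64 in Control, at least 19.6-fold lower, and an adjusted p of 0.0399 by DESeq2. The bound was 6.20-fold without Isl1CKO replicate 2 and 12.9-fold without Control replicate 2. Dmrtb1, a DM-domain factor of germ cells, was the nearest gene of a region with 39 and 95 counts in Isl1CKO and 20 and 45 in Control, at a log2 fold change of 1.64 (SE 0.54), and was not called.

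Islet-related member genes also had H3K27ac at a distance, and the next 2 genes were chosen after their values were seen. Ghsr, the ghrelin receptor, was the nearest gene of 3 regions within a neighbouring gene. Their counts were 0 and 0, 1 and 4, and 2 and 8 in Isl1CKO, against 6 and 60, 27 and 43, and 22 and 23 in Control. All 3 were lower in both Isl1CKO libraries, the first at least 14.7-fold. Control replicate 2, which stood apart, held 60 of its Control counts, and the bound was 3.22-fold without it, 22.8-fold without Control replicate 1 and 4.65-fold without Isl1CKO replicate 2. That first region reached the floor of 50 counts through Control alone, so its bound is not evidence of a difference. The promoter region of Ghsr had 50.6 and 38.5 CPM of H3K27me3 in Isl1CKO and 34.2 and 45.0 CPM in Control, where the genotypes overlapped. Sstr5 was the nearest gene of 3 regions with 3 and 21, 10 and 40, and 4 and 2 counts in Isl1CKO, against 13 and 49, 37 and 83, and 8 and 38 in Control. The first Ghsr region and the third Sstr5 region did not pass the filter and were not tested, and edgeR called none of the other 4. The strongest H3K27ac region among member genes was at Nfatc2, a calcium-regulated factor of lymphocytes, with 68.9 and 113 CPM in Isl1CKO and 96.1 and 162.9 CPM in Control.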

How the data were processed

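H3K27me3, H3K27ac and ISL1 were profiled by CUT&Tag. The submitters' processing notes name Bowtie2 2.3.5.1, Picard 2.27.4, MACS2 2.2.6, ChIPseeker 1.38.0, edgeR 4.0.16 and GRCm39, without roles. For the histone marks the deposited values are raw read counts in regions, a column per library, with annotation. Beside them the authors deposited a log2 fold change, a p-value and its adjusted value per region. The deposited ISL1 table holds a score per promoter window, of whole numbers with no stated unit. Chromosome labels of the histone tables followed the alphabetical order of names. They matched the ISL1 table for 9.25% of 10277 H3K27me3 regions as written and for 100% once relabelled, and corrected labels are printed.

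Repeated regions were dropped (90 of 20176 for H3K27me3, 108 of 31587 for H3K27ac). Counts were filtered with filterByExpr, scaled by TMM and compared with edgeR 4.0.16 (quasi-likelihood test, R 4.3.3), with Benjamini-Hochberg adjustment over all regions of a mark and a threshold of 0.05. DESeq2 1.42.0 was an alternative. The fits were checked on simulated data. Tables used Python 3.11.15, pandas 2.3.3 and scipy 1.17.1. Values are mean ± SD. Named members follow a rule of smallest p, highest level, nearest width and top of each gene list. Members, lists and rules were chosen with earlier results of these data known. RefSeq symbols matched 2140 of the 2829 member genes, 1402 of them protein-coding. Columns of other samples numbered 0. Same-numbered replicates did not deviate together (r -0.014 for H3K27me3, 0.050 for H3K27ac), so no pairing was used. Some members are not reported here.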

Additional observations from a re-analysis of the deposited data

How the results depend on the processing

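No member was called by edgeR under any scaling, with no filter, with the replicate block or with a library left out, and DESeq2 called 12. The median H3K27me3 log2 fold change over members was 0.10 with library totals, -0.55 with sizes implied by the authors' fold changes, 0.067 for members under 2500 bp, and -0.066 to 0.069 without single libraries. With the replicate block it was -0.05 with 0 calls for H3K27me3, and for H3K27ac -0.23 with 0 calls, so pairing by number changed no call. The lowest quintile by level had 0.51 with library totals, -0.13 with implied sizes, 0.31 with the replicate block and 0.25 to 0.50 without single libraries. The highest quintile had -0.019 and -0.67 with the first pair of scalings. The share of counts in members differed by -0.011 points for regions within 1 kb of a start and by 0.174 to 0.434 points without single libraries. With implied sizes 206 members were above and 1545 below. An ISL1 value of at least 10 was reached by 0 member genes at both stages, against 18 (0.104%) and 0 of all coding windows. For H3K27ac, DESeq2 called 2 regions, leaving out single libraries gave 0 to 57 calls and medians of -0.71 to 0.018, and implied sizes gave 0.31. Signs turned at Twist2 (0.082 with library totals, -0.31 to 0.20 without single libraries) and Sst (-0.30 with implied sizes). Of 25 named regions with a fold change, member regions and H3K27ac regions of member genes together, 2 turned sign under an alternative. The cause was not tested. Many of the 25 were named for a small p-value with groups that did not overlap, which favours a stable sign. Other named members whose direction is given were not checked in this way. A planned comparison of promoter base composition was void, because only 56.7% of the members over a start had a sequence, and its values are not given. With 2 libraries a group and about 18 to 42 counts at the median member, small differences could not be resolved.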
